A study of Mus musculus with 6 samples.

Results

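The 5 genes described here encode 4 galectins (Lgals1, Lgals3, Lgals8 and Lgals9) and the galectin-3 binding protein (Lgals3bp), out of 38207 genes and loci in the deposited count table. They were matched by symbol and chosen by a list drawn up when their difference between tMCAO and sham in these libraries was already known, so that difference is given as a description and is not tested. The data are nanopore cDNA read counts from microglia of mouse brain, in 6 libraries that each pooled the cells of 30 wild-type (WT) mice. The 3 control pools came from mice after sham surgery, and the 3 others from mice after tMCAO (in its usual reading, transient occlusion of the middle cerebral artery, which models ischemic stroke). The sources used here do not give the age of the mice, the time after surgery or the way microglia were isolated.

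Galectins are small lectins that bind beta-galactosides, above all N-acetyllactosamine chains on glycoproteins, and they leave the cell without a signal peptide. Galectin-1 has a single carbohydrate-binding domain and forms homodimers. Galectin-3 joins its binding domain to a flexible tail through which it self-associates, and galectin-8 and galectin-9 carry a pair of binding domains in tandem. In macrophages and microglia, galectin-3 is known from activated, phagocytic states, and inside cells galectin-3, galectin-8 and galectin-9 gather on damaged lysosomes. Galectin-3 binding protein is a secreted, heavily glycosylated scavenger receptor cysteine-rich protein known to be induced by interferon.

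The stretches of 250 bases upstream of the transcription start are shown for Lgals3, whose fold change was the largest of the 5, and for Lgals3bp and Lgals9. Lgals9 held letters of the interferon-stimulated response element core. Lgals3bp did not, and held only a shorter core, found in 21.3% of all stretches and added after the sequences were seen. The stretches come from RefSeq on build GRCm38.p6, are written 5′ to 3′ on the strand of the gene, and have every motif match in capitals. RefSeq's table held such a stretch for 4 of the 5 genes. Lgals3 lies at chr14:47373610-47373859 on the plus strand, Lgals3bp at chr11:118401960-118402209 and Lgals9 at chr11:78984925-78985174 on the minus strand.
Lgals3: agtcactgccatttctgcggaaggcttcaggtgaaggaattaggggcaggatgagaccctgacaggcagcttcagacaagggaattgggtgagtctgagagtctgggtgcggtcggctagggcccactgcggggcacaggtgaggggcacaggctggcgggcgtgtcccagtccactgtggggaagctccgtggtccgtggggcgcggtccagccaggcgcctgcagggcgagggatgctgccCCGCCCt
Lgals3bp: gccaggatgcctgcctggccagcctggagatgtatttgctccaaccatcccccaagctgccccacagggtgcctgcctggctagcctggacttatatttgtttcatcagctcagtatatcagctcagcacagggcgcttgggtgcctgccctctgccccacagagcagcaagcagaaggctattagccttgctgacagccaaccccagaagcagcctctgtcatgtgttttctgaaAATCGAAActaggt
Lgals9: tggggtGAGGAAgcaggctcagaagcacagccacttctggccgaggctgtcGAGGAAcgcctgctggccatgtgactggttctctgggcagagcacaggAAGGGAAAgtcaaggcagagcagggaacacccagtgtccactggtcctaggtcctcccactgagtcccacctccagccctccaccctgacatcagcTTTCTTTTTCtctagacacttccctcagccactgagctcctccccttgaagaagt

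Both strands were searched for 7 motifs. In the Lgals9 stretch, the core of the interferon-stimulated response element (GAAANNGAAA, read here on the other strand as TTTCTTTTTC) stood at -55 to -46 from the start, and 2.98% of 32536 distinct promoter stretches of this length held that motif. The shorter interferon regulatory factor core AANNGAAA, which lies within every match of the longer one, was added after the sequences were seen. It stood at -14 to -7 upstream of Lgals3bp and at -151 to -144 and -55 to -48 upstream of Lgals9, and 21.3% of all stretches held it. The PU.1 core GAGGAA stood at -244 to -239 and -199 to -194 upstream of Lgals9 (23.4% of stretches). A GC box (GGGCGG, read on the other strand, 33.0% of stretches) stood at -7 to -2 upstream of Lgals3. The STAT element TTCNNNGAA (7.04%), the AP-1 site TGANTCA (6.73%) and the E-box CACGTG (6.04%) had no match in the 4 stretches, and the Lgals8 stretch held none of the 7 motifs. These are matches of letters and show nothing about binding.

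Totals ranged from 1855495 to 2614512 counts a library, so that 1 count came to 0.382 to 0.539 CPM (counts scaled to a common library total). The 10 microglia markers summed to 24197 to 28207 CPM in every library, while 8 T and NK cell markers summed to 7.39 to 14.4 CPM and 4 neuronal markers to 3.73 to 9.28. Choroid plexus markers ran from 8308 to 42530 CPM in sham and from 2153 to 9454 in tMCAO, and erythroid markers from 955 to 6040 and from 215 to 379.7. Sham 2 was the highest library for both, and also for the astrocyte (408 CPM) and oligodendrocyte markers (1029 CPM). In bulk pools, a change in the number of cells of a type and a change in RNA per cell cannot be told apart. The labels call the pools replicates and say nothing of when each was made, so the spread behind each p-value is that among these pools, which may be technical. Log2 fold changes compare tMCAO with sham, are scaled by TMM and carry their standard error.

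Lgals3, Lgals3bp and Lgals1 were several-fold higher after tMCAO, whereas Lgals9 and Lgals8 differed by far less. The mean in tMCAO was 24.0-fold that in sham for Lgals3, 7.35-fold for Lgals3bp, 6.58-fold for Lgals1, 1.56-fold for Lgals9 and 1.38-fold for Lgals8, all in CPM. For each of the 5 genes every tMCAO library lay above every sham library, which also held for 23.3% of the 13127 tested genes. In edgeR's fit across all genes 4 of the 5 were past an adjusted p of 0.05 (9.17% of tested genes were called higher, 8.96% lower and 18.1% in either direction), and Lgals8 was not. Because these genes were picked with this contrast known, nothing is read from those counts.

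**Figure D1:**
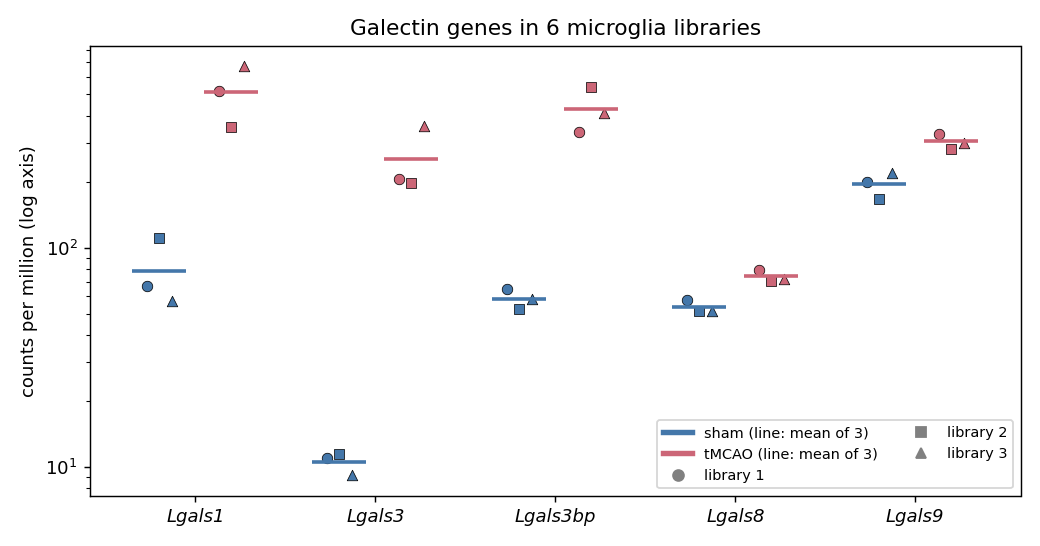
CPM (log axis) of the 5 genes in each of 6 libraries, with 3 sham libraries in blue, 3 tMCAO libraries in red, a marker shape for each library number and a line at each group's mean. All tMCAO points lie above the sham points of the same gene, by the widest gap for Lgals3 (9.18 to 11.5 against 197 to 357 CPM).

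Lgals3 encodes galectin-3, the chimera-type galectin also known as the macrophage antigen Mac-2. Its row (ENSMUSG00000050335) had 11.0, 11.5 and 9.18 CPM in sham libraries 1 to 3 and 205, 197 and 357 CPM in tMCAO libraries 1 to 3, so that the lowest tMCAO library was 17.2-fold above the highest sham library. These levels rest on 26, 29 and 24 reads in sham and 417, 366 and 670 in tMCAO. The mean went from 10.5 ± 1.21 to 253 ± 89.9 CPM (SD, n = 3 each), with a log2 fold change of 4.48 ± 0.31. The sham libraries differed no more than read counting alone would give (coefficient of variation 11.5%, against 19.5% from counting). Among tMCAO libraries the coefficient of variation was 35.5%, well above the 4.54% of counting, with tMCAO 3 high and the other two close together.

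Lgals1 encodes galectin-1, the dimeric galectin known for binding glycans of T cells and other leukocytes. Its row (ENSMUSG00000068220) had 66.6, 111 and 57.0 CPM in sham 1 to 3 and 520.1, 354 and 670.5 CPM in tMCAO 1 to 3. The spread was wide in both groups (coefficients of variation of 36.8% and 30.7%, against 7.15% and 3.18% from counting), yet the lowest tMCAO library stood 3.19-fold above the highest sham library. The group means were 78.2 ± 28.8 and 515 ± 158 CPM, and the log2 fold change was 2.60 ± 0.37. Its high sham library was sham 2, the library with the highest choroid plexus, erythroid, astrocyte and oligodendrocyte sums, whose part in the level of Lgals1 was not tested. Without sham 2 the log2 fold change was 2.98, and without tMCAO 3 it was 2.33. RefSeq places a non-coding gene, Gm30368, over Lgals1, and since strand-aware counting is not stated, reads of the 2 cannot be told apart.

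Lgals3bp encodes the secreted binding partner of galectin-3. Its row (ENSMUSG00000033880) held 64.5, 52.3 and 58.1 CPM in sham 1 to 3 and 337, 538 and 411 CPM in tMCAO 1 to 3. The sham libraries lay close together and tMCAO 2 was highest, unlike Lgals1 and Lgals3, for which tMCAO 3 was highest and tMCAO 2 lowest. The mean went from 58.3 ± 6.10 to 429 ± 102 CPM, with a log2 fold change of 2.76 ± 0.20. The coefficients of variation were 10.5% in sham, near the 8.29% of counting, and 23.8% in tMCAO, against 3.50% from counting.

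Lgals9 encodes galectin-9, a tandem-repeat galectin and ligand of the checkpoint receptor TIM-3. Its row (ENSMUSG00000001123) had 199, 166 and 219.5 CPM in sham and 331, 282 and 300.4 CPM in tMCAO. The lowest tMCAO library was 1.28-fold above the highest sham library. The mean was 195 ± 27.2 CPM in sham and 305 ± 25.1 in tMCAO, and the log2 fold change was 0.53 ± 0.16. Lgals8 encodes galectin-8, the tandem-repeat galectin that recruits autophagy receptors to damaged vesicles. Its row (ENSMUSG00000057554) had 57.8, 51.5 and 51.3 CPM in sham and 79.3, 70.6 and 71.9 CPM in tMCAO, the narrowest gap of the 5 genes (1.22-fold between the nearest libraries). Its means were 53.5 ± 3.69 and 73.9 ± 4.69 CPM, its log2 fold change was 0.35 ± 0.17, and its spread in both groups (6.89% and 6.34%) was no wider than counting gives (8.65% and 8.38%). With library totals as the only scaling, where the median of all tested genes moved to 0.11, the value of Lgals8 was 0.46.

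**Figure D2:**
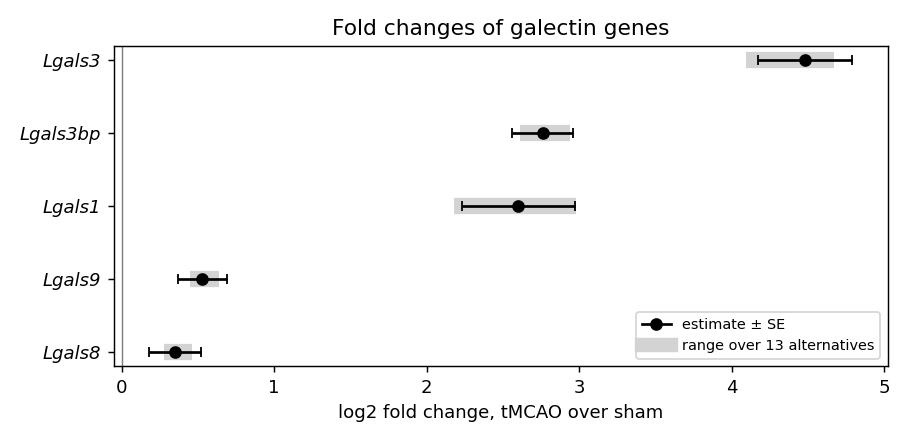
Log2 fold change of each gene between tMCAO and sham, with the point at the estimate, the bar at its standard error and the grey band at the range over 13 alternative settings. Lgals3 stands apart at 4.48, Lgals3bp and Lgals1 lie together at 2.76 and 2.60, and Lgals9 and Lgals8 lie at 0.53 and 0.35.

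Ratios between these genes restate the differences above library by library. The genes were picked with this contrast known, so the ratios are a description and no further result. A ratio of counts taken within a library does not depend on the depth of the library, and its change between libraries does not depend on gene length. The ratio of Lgals3 to Lgals3bp counts was 0.170, 0.220 and 0.158 in sham 1 to 3 and 0.610, 0.366 and 0.869 in tMCAO 1 to 3, with no overlap. That of Lgals1 to Lgals3 counts went the other way, from 6.08, 9.66 and 6.21 to 2.53, 1.80 and 1.88. The ratio of Lgals1 to Lgals3bp counts overlapped between the groups (1.03, 2.12 and 0.980 in sham, 1.54, 0.658 and 1.63 in tMCAO), as did that of Lgals9 to Lgals8 (3.45, 3.22 and 4.28 against 4.18, 3.99 and 4.18). So Lgals3 gained on both Lgals1 and Lgals3bp in every tMCAO library, while the proportion of Lgals9 to Lgals8 overlapped between the groups. The ratio of Lgals3 to Lgals9 counts had the widest change of the ratios computed, from 0.0418 to 0.0694 in sham to 0.620 to 1.19 in tMCAO.

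The other galectin genes had few reads or none. Lgalsl, the galectin-related protein that lacks lectin activity, was seen in every library, with 6 to 15 reads. It overlapped between sham (4.11 ± 1.61 CPM) and tMCAO (3.96 ± 0.870 CPM) and did not pass the filter on low counts. Lgals2, Lgals4, Lgals7 and Lgals12 had at most 1 read in any library and 6 reads in all, and Grifin had 0. A count of 0 allows up to 3 reads, or 1.15 to 1.62 CPM in these libraries. Such limits cover counting error only, and the reads came from PCR without molecular identifiers. Lgals6, a near copy of Lgals4, was not matched by symbol.

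For each gene, the 3 tested genes with the most similar values over the 6 libraries were picked among 5177 genes with a symbol and an average log2 CPM of at least 4. The measure was the root mean square difference of log2 CPM after centring each gene on its own mean, which weighs the size of the change between the groups as well as the differences among libraries. For Lgals3 they were Rab7b (0.37), a small GTPase of late endosomes, Xdh (0.47), xanthine dehydrogenase, and Fabp5 (0.50), a fatty acid binding protein. Rab7b had 1.69, 3.17 and 3.06 CPM in sham and 47.3, 36.1 and 76.7 in tMCAO, highest in tMCAO 3 and lowest in tMCAO 2 as Lgals3 was. Xdh was likewise highest in tMCAO 3 but lowest in tMCAO 1 (27.6, 34.5 and 45.8 CPM in tMCAO 1 to 3). Since the genes were picked for a like profile, shared orders are a description. For Lgals1 they were Msrb1 (0.28), a methionine sulfoxide reductase, Anxa2 (0.32), the membrane-binding annexin A2, and Vim (0.33), the intermediate filament vimentin. Anxa2 had 36.7, 42.8 and 28.7 CPM in sham and 152, 126 and 238 in tMCAO, with the highest sham and tMCAO values in sham 2 and tMCAO 3, as for Lgals1. Msrb1 and Vim were also highest in sham 2 among the sham libraries, but among the tMCAO libraries they were highest in tMCAO 1 (81.3 and 61.1 CPM, against 72.4 and 49.0 in tMCAO 3).

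For Lgals3bp the nearest genes were Ifi204 (0.21), an interferon-induced DNA sensor, Rtp4 (0.23), an interferon-induced protein, and Gla (0.24), the lysosomal alpha-galactosidase. Ifi204 had 8.43, 7.93 and 9.56 CPM in sham and 76.8, 103 and 70.8 in tMCAO, and all 3 genes were highest in tMCAO 2, the library where Lgals3bp was highest. For Lgals9 they were Sp110 (0.04), a nuclear body protein, Trim30a (0.05), a TRIM family protein, and Fbxw4 (0.05), an F-box protein. For Lgals8 they were Hat1 (0.03), a histone acetyltransferase, Zfp110 (0.05), a zinc finger protein, and Tor1aip2 (0.06). The genes near Lgals8 and Lgals9 also had small changes, with log2 fold changes of 0.30 to 0.54. Lgals9 and Lgals8 were also nearest to each other among the members (0.16), and Lgals3 and Lgals8 were farthest apart (2.01).

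**Figure D3:**
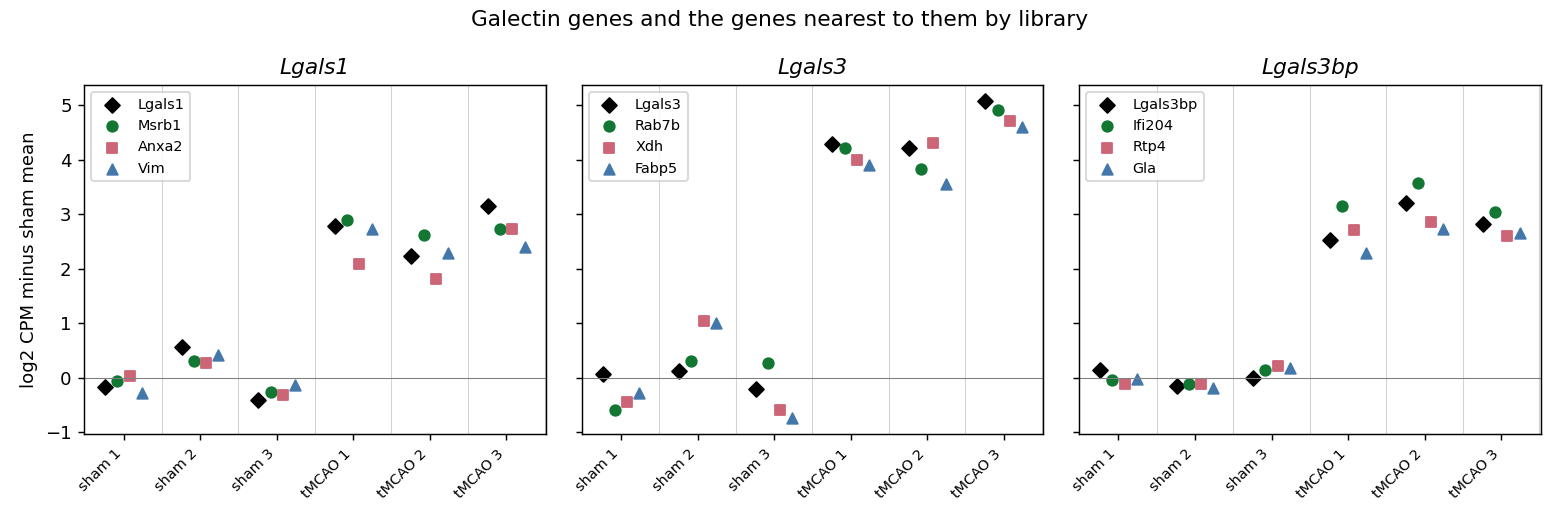
Log2 CPM minus the sham mean of the same gene (y axis) in each library (x axis) for Lgals1, Lgals3 and Lgals3bp (black diamonds) and the 3 genes nearest to each. Lgals1 and Lgals3 are highest in tMCAO 3 (670.5 and 357 CPM), and Lgals3bp with its nearest genes is highest in tMCAO 2 (538 CPM).

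Markers of other myeloid cells are given next, with single genes named after their values were seen. Of 10 border-associated macrophage markers, 9 were tested and 6 rose (66.7%, beside 9.17% of all tested genes, median log2 fold change 1.04). Of the 6, Folr2 had 4 reads in sham 2 and could pass the filter on low counts only through tMCAO, so the share is a description. The list summed to 285 to 376 CPM in sham and 639 to 785 in tMCAO. The highest sum was in tMCAO 3, where Ms4a7 had 207 CPM against 68.9 and 79.8 in tMCAO 1 and 2, while Mrc1, the mannose receptor, was lowest there among tMCAO libraries (81.8, 90.5 and 49.5 CPM). Of 10 monocyte markers, 7 were tested and 3 rose, Ccr2, Fn1 and Plac8 (42.9%, beside the same 9.17%, median 0.20). In sham Ccr2 and Fn1 had 5 to 8 reads, under the filter's minimum of 10, and could pass it only through tMCAO. Plac8, with 10 to 13 reads in sham, was near that minimum. The share is therefore a description and no result about monocytes. The monocyte list summed to 100.2 to 118 CPM in sham and 121 to 319.6 in tMCAO, highest in tMCAO 1. There Fn1 had 97.0 CPM, against 58.2 and 19.2 in tMCAO 2 and 3. Chil3 had 106 CPM in tMCAO 1, against 34.5 and 23.4, and overlapped between the groups. The monocyte marker Ly6c2 overlapped between the groups, with 11.4, 11.9 and 13.8 CPM in sham and 21.7, 9.70 and 10.7 in tMCAO, while Ccr2, the chemokine receptor of monocytes, had 3.37, 1.98 and 2.29 CPM in sham and 8.86, 10.2 and 11.7 in tMCAO. No marker of either list was at 0 in all libraries of a group. Of 10 neutrophil markers, all tested, 1 fell, a share near the 8.96% of all tested genes. That count is therefore no result about the list. The neutrophil list summed to 1816 to 2308 CPM in sham and 419 to 1827 in tMCAO. Of the 10 microglia markers 4 fell (40.0%, beside 8.96% of all tested genes, median -0.22). Macrophages and monocytes also express galectins, and the part of these cells in the values above was not tested.

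Of 30 genes for surface and lysosomal proteins reported to bind galectins, 24 were tested, 6 rose, 0 fell and 18 did not pass. The share that rose was 25.0%, beside 9.17% of all tested genes, and the share that fell was 0%, beside 8.96%. Of the 6, Pdcd1 (3 to 4 reads in sham) and Cd44 (9 reads in sham 2) could pass the filter on low counts only through tMCAO. The shares of this list are therefore a description. The median log2 fold change was 0.27, against a median of 0.00 over all tested genes. At an unadjusted p under 0.05, 1 was lower in edgeR's fit, while DESeq2 called 0 lower and limma voom 0. Cd44, a hyaluronan receptor and ligand of galectin-9, rose from 4.92 ± 1.28 to 22.7 ± 0.671 CPM (2.08 ± 0.30, edgeR adjusted p = 0.000555), with 5.06, 3.57 and 6.12 CPM in sham and 22.7, 22.1 and 23.4 in tMCAO. P4hb, the disulfide isomerase that galectin-9 binds at the cell surface, rose from 143 ± 14.3 to 283 ± 36.8 CPM (0.86 ± 0.17, adjusted p = 0.00368). Pdcd1, the checkpoint receptor PD-1, rose from 1.33 ± 0.227 to 8.26 ± 2.98 CPM (2.47 ± 0.49, adjusted p = 0.0044), on few reads. Clec7a, the beta-glucan receptor dectin-1, rose from 91.5 ± 19.0 to 327 ± 141 CPM (1.72 ± 0.33, adjusted p = 0.0113). Slc3a2, the CD98 heavy chain and a ligand of galectin-3, rose from 75.8 ± 17.3 to 146 ± 43.3 CPM (0.81 ± 0.23, adjusted p = 0.0300), and Ptprc, the leukocyte phosphatase CD45 bound by galectin-1, from 142 ± 17.5 to 219 ± 17.8 CPM (0.51 ± 0.16, adjusted p = 0.0423).

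Trem2, Havcr2 and Lamp2 are named for their known ties to galectins, after their values were seen. Trem2, the lipid receptor that galectin-3 binds, had 1317 ± 129 CPM in sham and 1316 ± 163 in tMCAO (-0.11 ± 0.15, edgeR adjusted p = 0.654). Havcr2, which encodes TIM-3, had 79.3 ± 10.6 and 74.6 ± 3.93 CPM (-0.21 ± 0.17, adjusted p = 0.435). Lamp2, a heavily glycosylated lysosomal membrane protein, had 623 ± 75.2 and 955 ± 145 CPM and did not pass (0.50 ± 0.17, adjusted p = 0.0574), though it passed without tMCAO 1 (0.0304), with library totals (0.0172) and with no filter (0.0019). Without sham 3 the number of partner genes that rose was 3. The call of Clec7a was lost without sham 3 or tMCAO 3 (edgeR adjusted p from 0.0526 to 0.0605), that of Slc3a2 without sham 1, sham 3, tMCAO 1 or tMCAO 2 (0.0573 to 0.137) and that of Ptprc without any library but tMCAO 2 (0.0541 to 0.145). Limma voom did not call Slc3a2 (adjusted p = 0.0506), and Ptprc was not called by DESeq2 (0.0726), by limma voom (0.0506) or with upper-quartile scaling (0.0799). With both sham 1 and tMCAO 3 left out, Clec7a (0.0816) and Ptprc (0.123) were not called.

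Of 30 genes for enzymes and transporters that build or cap the N-acetyllactosamine chains bound by galectins, 22 were tested, 7 rose, 1 fell and 14 did not pass, with a median of 0.23. The share that rose was 31.8% and the share that fell 4.55%, beside 9.17% and 8.96% of all tested genes. Of the 7, Man2a1 (7 to 12 reads in sham) and B3gnt8 (5 to 10) could pass the filter on low counts only through tMCAO. The list was also chosen with earlier results known, so its shares are a description. Gcnt2, which adds the branches of the I antigen to poly-N-acetyllactosamine, rose from 17.0 ± 5.92 to 80.2 ± 17.6 CPM (2.12 ± 0.27, edgeR adjusted p = 0.000267), with 19.4, 10.3 and 21.4 CPM in sham and 61.6, 96.5 and 82.5 in tMCAO. Man2a1, the Golgi mannosidase that opens N-glycans for branching, rose from 4.03 ± 1.22 to 14.0 ± 2.96 CPM (1.67 ± 0.36, adjusted p = 0.0067). B4galt1, which adds the galactose of N-acetyllactosamine, rose from 12.9 ± 3.08 to 28.4 ± 5.67 (1.02 ± 0.25, adjusted p = 0.0155), and Gcnt1, which starts core 2 branches of O-glycans, from 65.4 ± 6.47 to 113 ± 2.09 (0.67 ± 0.17, adjusted p = 0.0152).

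St6gal1, whose alpha-2,6 sialic acid masks galectin-1 ligands, also rose, from 16.5 ± 1.70 to 32.4 ± 3.57 CPM (0.86 ± 0.23, edgeR adjusted p = 0.0191). The remaining 2, named after their values were seen, were B3gnt8, which extends poly-N-acetyllactosamine (1.46 ± 0.39, adjusted p = 0.0219), and Mgat5, which makes the beta-1,6 branch that galectin-3 favours (0.68 ± 0.21, adjusted p = 0.0431). Mgat4a, another branching enzyme, fell from 135 ± 20.1 to 89.2 ± 22.8 CPM (-0.73 ± 0.20, adjusted p = 0.0217), with groups that overlapped. Without sham 1 only 2 rose, and 4 rose without sham 2 or sham 3, and the number that fell was 0 without sham 1, sham 2, tMCAO 2 or tMCAO 3 and 2 without sham 3. With 1 of several libraries left out, the calls of Gcnt1 (without sham 1 or sham 3, adjusted p from 0.0595 to 0.0811), B4galt1 (sham 1, sham 2 or tMCAO 2, 0.0534 to 0.0660), St6gal1 (sham 1 or sham 2, 0.0544 to 0.0818) and Mgat4a (sham 1, sham 2, tMCAO 2 or tMCAO 3, 0.0508 to 0.0967) were lost. So were those of B3gnt8 (sham 1, sham 3 or tMCAO 3, 0.0554 to 0.107) and Mgat5 (every library but tMCAO 3, 0.0672 to 0.137), and those of Gcnt2 and Man2a1 held under all alternatives run. DESeq2 did not call St6gal1 (adjusted p = 0.0550), B3gnt8 (0.0817) or Mgat5 (0.136), Mgat5 was also lost with upper-quartile scaling (0.0635), and Mgat4a was lost with library totals (0.0546). With both sham 1 and tMCAO 3 left out, edgeR did not call Gcnt1 (0.0561), St6gal1 (0.114), Mgat4a (0.127), B3gnt8 (0.151) or Mgat5 (0.0821).

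Of 26 genes of the response to damaged lysosomes, the setting in which cytosolic galectins gather on exposed glycans, 24 were tested, 3 rose, 2 fell and 19 did not pass, with a median of 0.22. The shares that rose (12.5%) and fell (8.33%) were near those of all tested genes (9.17% and 8.96%), so the counts are no result about the list. Sqstm1, the autophagy receptor p62, rose from 69.9 ± 5.48 to 148 ± 39.8 CPM (0.95 ± 0.19, edgeR adjusted p = 0.00485), with 65.8, 67.8 and 76.1 CPM in sham and 161, 179 and 103 in tMCAO. Pdcd6ip, the ESCRT partner ALIX, which binds galectin-3, rose from 33.4 ± 5.97 to 63.0 ± 15.7 CPM (0.79 ± 0.21, adjusted p = 0.0204), and Calcoco1, an autophagy receptor, from 8.29 ± 2.10 to 19.5 ± 4.45 (1.10 ± 0.31, adjusted p = 0.0246). Map1lc3a, an LC3 protein of the autophagosome, fell from 54.1 ± 16.9 to 30.3 ± 4.68 CPM (-0.96 ± 0.26, adjusted p = 0.0238), and Yod1, a deubiquitinase, from 14.3 ± 5.09 to 6.26 ± 0.649 (-1.30 ± 0.36, adjusted p = 0.0251). Trim16, which acts with galectin-3 on damaged vesicles, had too few reads to be tested (1.08 ± 0.623 and 0.506 ± 0.493 CPM) and is named after its values were seen.

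Of these 5 calls only that of Sqstm1 held under all alternatives run. The others were lost without sham 2, sham 3 or tMCAO 1 for Pdcd6ip (edgeR adjusted p from 0.0691 to 0.0823), without sham 1, sham 3 or tMCAO 2 for Calcoco1 (0.0884 to 0.102), without sham 1, sham 2, tMCAO 1 or tMCAO 2 for Map1lc3a (0.0582 to 0.105) and without any library but sham 3 for Yod1 (0.0509 to 0.106). DESeq2 did not call Calcoco1 (adjusted p = 0.0597) or Yod1 (0.0560), limma voom did not call Map1lc3a (0.0528) or Yod1 (0.0729), and with both sham 1 and tMCAO 3 left out Calcoco1 (0.0616) and Yod1 (0.132) were not called. The number that rose was 1 without sham 3, and the number that fell was 0 without sham 1, sham 2, tMCAO 1 or tMCAO 2 and 1 without tMCAO 3. Interferon-stimulated genes, set beside Lgals3bp and Lgals9 as genes known to respond to interferon, rose in 15 of 16 members (93.8%, beside 9.17% of all tested genes, median 2.40), the other being Mx2. Among those that rose, Stat2, Ifit2, Mx1 and Oasl2 could pass the filter on low counts only through tMCAO, so the share is a description. The list's sums were 312, 328 and 342 CPM in sham 1 to 3 and 1414, 1650 and 1444 CPM in tMCAO 1 to 3, highest in tMCAO 2 as Lgals3bp was. The change of Lgals3bp (2.76) lay near the list's median, while that of Lgals9 (0.53) lay below all 16 members, whose lowest value was 0.73 (Mx2).

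**Figure D4:**
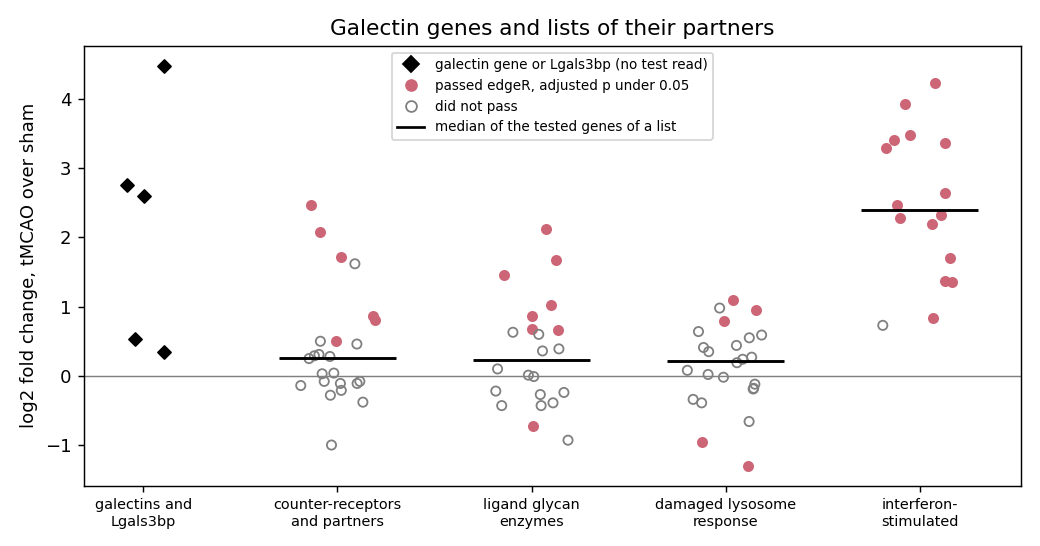
Log2 fold change (y axis) of the 5 galectin genes (black diamonds, no test read) and of the tested genes of 4 lists (circles, filled where edgeR's adjusted p was under 0.05), with a line at each list's median. The medians of the partner, glycan enzyme and lysosome lists lie at 0.27, 0.23 and 0.22, and that of the interferon-stimulated list at 2.40.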

How the data were processed

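Microglia RNA of 6 pools (3 sham, 3 tMCAO) was extracted with TRIzol and made into nanopore cDNA-PCR libraries, per the labels' protocols; the series text speaks of isolated microglia, the extract protocol of tissue. The authors deposited counts per gene and CPM side by side, with minimap2 named, without a version, in the submitters' processing notes. The sources used here give no build, annotation, counting rule or strand setting. Recomputed CPM matched the deposited CPM within 4.87e-06. Of the deposited rows 38207 held values, and 12 lines without values were left out. Counts were fitted with edgeR 4.0.16 (R 4.3.3) by the quasi-likelihood test with TMM scaling, filterByExpr (minimum count 10, total 15), group as the only term and Benjamini-Hochberg adjustment over 13127 tested rows, with calls at an adjusted p under 0.05. Depth was 1855495 to 2614512 counts a library.

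The 5 genes and all lists were chosen with earlier results of these data known. A gene could pass the filter through either group alone, so the shares of lists set beside those of all tested genes are descriptions. The text names all 5 genes, every other galectin with a count, up to 6 called genes with the smallest p from each of the partner, glycan enzyme and lysosome lists, and the 3 genes nearest to each of the 5 by log2 CPM (prior count 2). Alternatives were DESeq2 1.42.0, limma 3.58.1 voom, library totals, upper-quartile scaling, no filter, a replicate block and each library left out. Leaving out both sham 1 and tMCAO 3 was added after seeing the data.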

Additional observations from a re-analysis of the deposited data

How the results depend on the processing

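Over 13 alternatives the log2 fold change ran from 2.18 to 2.98 for Lgals1, 4.09 to 4.67 for Lgals3, 2.61 to 2.94 for Lgals3bp, 0.28 to 0.46 for Lgals8 (0.46 with library totals) and 0.45 to 0.64 for Lgals9, and no value changed sign. The number of the 5 genes past the threshold, 4 as reported, was 3 or 4. The 2380 changed genes became 4039 with no filter, 1573 with both sham 1 and tMCAO 3 left out, and 1254 (without sham 1) to 2590 with 1 library left out. DESeq2 called 1695. Library totals moved the share of calls that were higher from 50.6% to 63.2%, and no filter moved the median of all genes to -0.14. Partner genes that rose were 3 to 6 with 1 library left out, and 1 fell under upper-quartile scaling. Glycan enzymes that rose were 4 with DESeq2, 3 with both libraries left out and 2 to 7 with 1 left out. Those that fell were 0 with both left out or with library totals, and 0 to 2 with 1 left out. Lysosome genes that rose were 5 with no filter and 1 to 3 with 1 library left out. Those that fell were 1 with DESeq2, with both left out and with the replicate block, 0 with limma voom, and 0 to 2 with 1 left out. Interferon-stimulated genes that rose were 14 to 16. Deviations of same-numbered pools from their group means had correlations of -0.209, 0.0167 and -0.174 for numbers 1, 2 and 3. The labels do not say whether the numbers pair the pools, and these correlations cannot decide it. With the replicate block 1662 genes were called. Of the genes named from the lists, Slc3a2 (adjusted p = 0.0559), Ptprc (0.0866), Gcnt1 (0.0505), Map1lc3a (0.0723) and Mgat5 (0.0974) were not called with the replicate block. The cause of these shifts was not tested, and 1 count is 0.382 to 0.539 CPM, which limits genes of few reads.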
